A study of Mus musculus with 12 samples.

Results

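Aminoacyl-tRNA synthetases are the enzymes that join each amino acid to its transfer RNA (tRNA), the adaptor that carries it to the ribosome. The 36 genes described here were chosen by name as enzymes of this kind, and all 36 were among the 53465 genes counted in mouse liver. Of these, 20 encode the enzymes of the cytosol and 16, whose names end in 2, encode the enzymes that are imported into mitochondria. RNA was sequenced from livers of C57BL/6N mice. Young animals were 3 months old, middle-aged animals 12 months and aged animals 18 months. Each age had 4 livers, taken here as 4 animals. The groups differed in age alone by their labels, with no treatment or transgene, and the study's methods state that its mice were male. The labels describe RNA preparation for young and old livers alone, while the study's methods trace liver RNA-seq at its 3 ages to published atlas counts, which leaves the preparation of these 12 libraries uncertain.

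Cytosolic synthetases serve translation of nuclear genes, and several of them are held in the multi-synthetase complex by scaffold proteins. The mitochondrial enzymes, themselves made in the cytosol, serve translation of the few proteins that mitochondria encode. Gars (glycine) and Kars (lysine) each supply both compartments from 1 gene and were counted with the cytosolic enzymes. When amino acids run short, uncharged tRNA activates the kinase encoded by Eif2ak4 (GCN2), and the transcription factor ATF4 then raises transcription of many cytosolic synthetases through an amino acid response element. In liver this response is known from protein restriction, and Fgf21, Asns and Atf5 are among the other genes that it reaches.

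The element is shown first because it is what many cytosolic synthetase promoters are known to share. The letters TGATGNAA, where N is any base, were searched on both strands of promoters from 250 bases before to 50 bases after each start (RefSeq, GRCm38.p6), and a promoter was found for 27 of the 36 genes. The letters occurred in 5 of 13 cytosolic genes with a promoter, Aars, Gars, Iars, Tars and Yars, and in 0 of 14 mitochondrial genes, against 3.97% of all 32851 promoters. A match describes letters in this window and not a bound site. Each window of 30 bases below is written along the gene's strand with the match in capitals; apart from Yars, the match lies on the opposite strand and so reads in reverse complement.
Tars: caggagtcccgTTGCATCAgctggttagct
Gars: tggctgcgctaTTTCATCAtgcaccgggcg
Aars: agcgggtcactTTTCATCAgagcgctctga
Iars: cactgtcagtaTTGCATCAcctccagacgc
Yars: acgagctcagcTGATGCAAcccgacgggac

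The windows lay at chr15:11399655-11399684 on the minus strand for Tars and, on the plus strand, at chr6:55037960-55037989 for Gars, chr8:111033840-111033869 for Aars, chr13:49682126-49682155 for Iars and chr4:129189895-129189924 for Yars. Counted from 0 at the start site, the match of Tars began at position -15, that of Gars at -30, the one shown for Aars at 9, that of Iars at 7 and that of Yars at 3. A binding motif of NRF1, a factor known for nuclear genes of mitochondrial function, was searched in the same way as GCGCATGCG. It occurred in 2 of the 14 mitochondrial genes, Wars2 and Vars2, and in 0 of the 13 cytosolic genes, against 1.75% of all promoters. These windows are shown with the motif in capitals to set them beside the response element, at chr3:99141015-99141044 (plus strand) for Wars2 and at chr17:35667621-35667650 (minus strand) for the upstream match of Vars2.
Wars2: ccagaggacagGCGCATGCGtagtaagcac
Vars2: agagtcttttaCGCATGCGCctgcgtgtcc

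Gene counts per liver lay between 8124312 and 10527159, and the 36 genes together took from 0.192 to 0.245% of them. The lowest raw count of a synthetase gene in any liver was 16, for Pars2, so no gene was lost to low depth. The 6 hepatocyte markers, Alb among them, summed to between 735824 and 1007109 normalised counts, and the 3 T cell markers to 41 at most. Among 29 marker genes of 7 cell types the biliary marker Sox9 alone was called with age, higher in aged livers by 0.86 on the log2 scale against young and 0.95 against middle-aged. Of all genes tested, 3.58% and 1.14% were called in these comparisons. The other biliary markers lay the other way for aged over young, at -0.27 (Krt19), -0.10 (Krt7) and -0.77 (Epcam). Young replicate 2 stood apart, with 19.16% of its gene counts from mitochondrially encoded genes (5.48 to 10.68% elsewhere) and 10.63% of all counts from synthetic spike-in RNA (1.59 to 6.23% elsewhere). In whole tissue, fewer cells of a type and less RNA per cell cannot be told apart.

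Threonyl-tRNA synthetase (Tars) was higher in aged livers and was the only synthetase gene called in any comparison of ages. Its normalised read counts (counts scaled by each library's size factor) were 1823, 1702, 1802 and 1867 in young livers, 1905, 1824, 1785 and 1618 in middle-aged livers, and 2113, 2441, 2364 and 2401 in aged livers. Every aged liver was above every young and every middle-aged liver, and the young and middle-aged livers overlapped. Tars rose by 0.37 ± 0.07 (log2 fold change ± SE, 95% interval 0.23 to 0.52) from young to aged, or 29.5%, with an adjusted p of 8.08e-05 (DESeq2 Wald test). Against middle-aged livers it rose by 0.39 ± 0.07, with an adjusted p of 9.46e-05. Between young and middle-aged livers its log2 fold change was -0.01, with an interval from -0.16 to 0.13 and an adjusted p of 0.949. Over the 3 ages together the adjusted p was 2.44e-06 (likelihood ratio test), and Tars ranked 40 by p among 865 genes called.

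The call on Tars was retained when any 1 of the 12 livers was left out, young replicate 2 included, with log2 fold changes from 0.35 to 0.42 for aged against young. With edgeR in place of DESeq2 the same fold change of 0.37 gave an adjusted p of 0.043, and aged against middle-aged (0.39) gave 0.11 and was not called. Replicates 1 and 2 of each age were taken as 1 replicate set and replicates 3 and 4 as the other, a split made by replicate number. The sample titles name no such sets. Within these sets the log2 fold change of aged over young was 0.37 in both, with DESeq2 adjusted p of 0.61 and 0.052 (2 livers per age). Tars (chromosome 15, 11382301 to 11399665, minus strand, GRCm38) shares no exon with another annotated gene. No stretch of at least 100 bases in its transcripts matched another gene's at 95% identity or more.

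**Figure D1:**
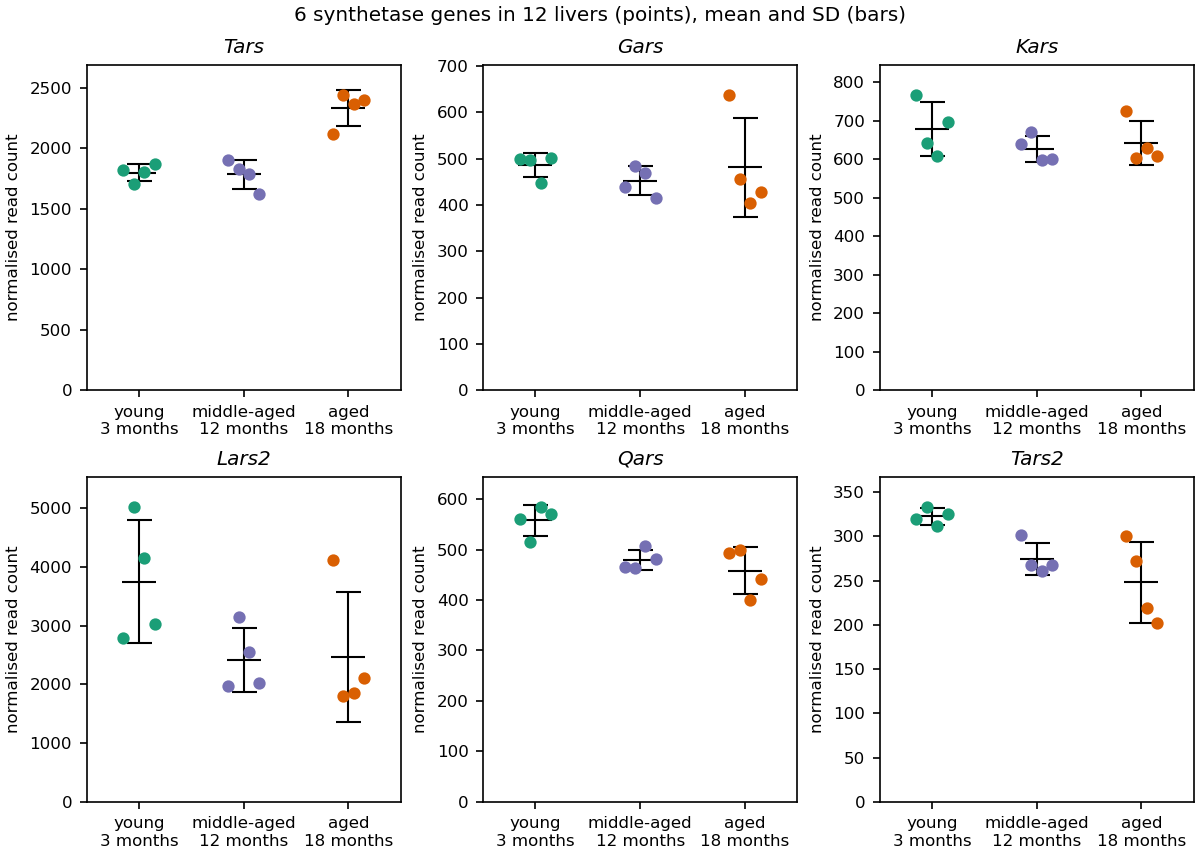
Normalised read counts of Tars, Gars, Kars, Lars2, Qars and Tars2 (vertical axes, from 0) in young, middle-aged and aged livers (horizontal axes); each point is 1 liver and bars give the mean and SD of 4 livers. The 4 aged livers sit above all others for Tars, and below all young livers for Qars and Tars2, while aged replicate 1 stands high for Gars and Lars2.

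Of the 36 genes, 1 was called in aged against young livers (3.58% of all 13527 genes tested were called), 0 in middle-aged against young (background 6.41%), 1 in aged against middle-aged (background 1.14%) and 1 over the 3 ages together (background 6.96%). The one gene called was Tars each time. For middle-aged against young, 7 genes had an unadjusted p under 0.05 with DESeq2 (background 21.7%) and 8 with edgeR (background 21.1%), which also called 0. For aged against middle-aged 2 genes did so with each tool (background 9.94% and 9.64%), and over the 3 ages 6 with each (background 20.5% and 20.4%). Livers of the groups did not overlap for 4 genes in aged against young (background 7.53%), Tars and Pars2 with the aged livers higher and Qars and Tars2 with the aged livers lower. They did not overlap for 5 genes in middle-aged against young (background 16%), Nars, Qars, Sars, Yars and Tars2, all with lower counts at middle age. For Cars and Tars alone did the aged and middle-aged livers not overlap (background 6.55%). These counts of 36 genes were few and near the background shares.

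Most estimates were small and bounded. For aged against young, the 95% interval lay within a change of 1.5-fold either way for 28 of the 36 genes, that is 19 of 20 cytosolic and 9 of 16 mitochondrial genes, against 54.2% of the 11804 genes averaging 10 or more normalised counts. The median log2 fold change was -0.06 for cytosolic and -0.09 for mitochondrial genes, beside 0.008 for those 11804 genes. For middle-aged against young both medians were -0.12, with 18 of 20 cytosolic and 14 of 16 mitochondrial estimates below 0, against 48.7% of all those genes. From middle age to 18 months the medians were 0.05 and 0.04, with 14 of 20 and 9 of 16 estimates above 0. The 2 comparisons with young livers share their young libraries, so their like signs are not separate observations. The medians of aged over young did not keep their sign within the replicate sets described above. They were 0.11 (cytosolic) and 0.05 (mitochondrial) in replicates 1 and 2, and -0.20 and -0.13 in replicates 3 and 4. With scaling to total counts they were 0.05 and 0.03, where the median of all genes moved to 0.124, so that relative to all genes they were -0.08 and -0.09.

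**Figure D2:**
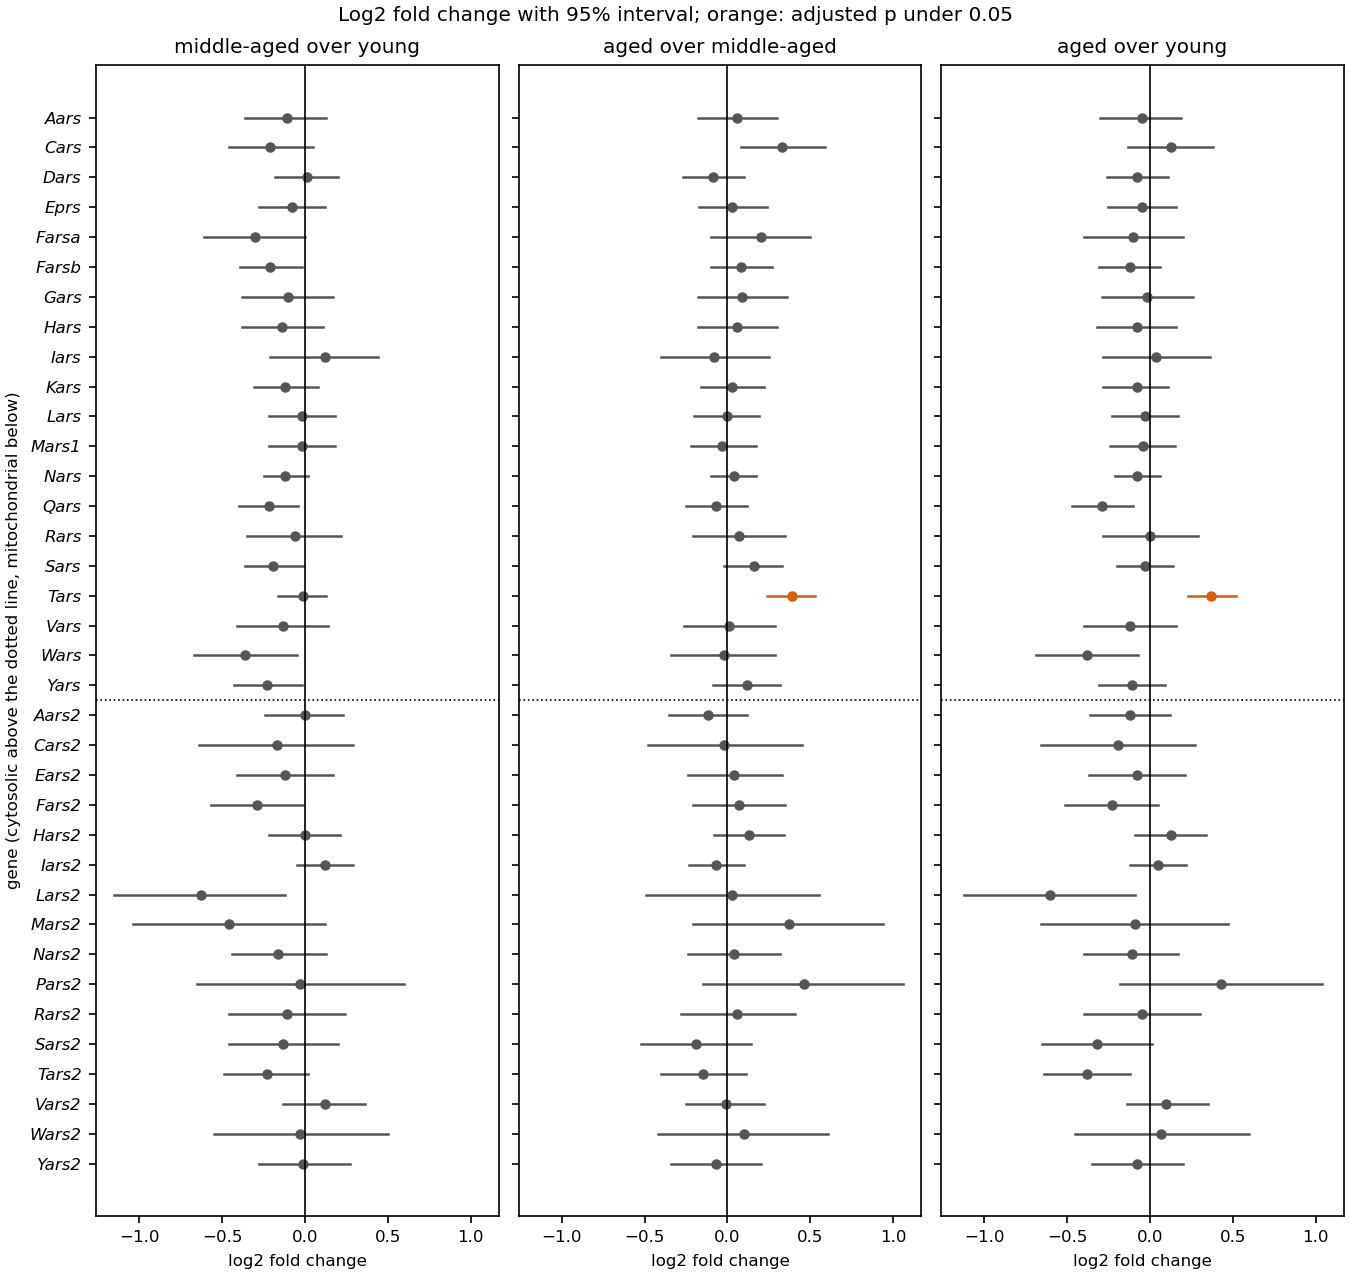
Log2 fold change (horizontal axes) of the 36 synthetase genes (rows) for middle-aged over young, aged over middle-aged and aged over young livers; points are DESeq2 estimates, lines their 95% intervals, and orange marks an adjusted p under 0.05. Tars is the one orange row, at 0.39 and 0.37, and the intervals are widest for mitochondrial genes of low count such as Pars2 and Mars2 and for Lars2.

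Tars was the one gene called among the 5 whose promoters held the response element. For aged against young the log2 fold change was -0.05 for Aars (alanine), -0.02 for Gars, 0.04 for Iars (isoleucine) and -0.11 for Yars (tyrosine), none of them called. Gars had 499, 498, 448 and 501 normalised counts in young livers, 440, 485, 470 and 416 in middle-aged livers, and 638, 456, 404 and 429 in aged livers. Its highest value by far was aged replicate 1, and the other 3 aged livers lay within or below the young range. Without that liver its log2 fold change was -0.18 in place of -0.02, and neither value was called. Aars had its highest count, 3087, in the same liver and its lowest, 2078, in aged replicate 4.

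Within the multi-synthetase complex, none of the 8 synthetase genes was called, and the median log2 fold change of aged over young was -0.05. Qars, which charges tRNA with glutamine, came nearest. It had 562, 515, 585 and 570 normalised counts in young livers, 465, 464, 507 and 481 in middle-aged livers, and 493, 499, 399 and 442 in aged livers. All young livers were above all older livers, and the middle-aged and aged livers overlapped. The log2 fold change of aged over young was -0.29 ± 0.09 (SE), with an adjusted p of 0.0548, and that of middle-aged over young was -0.22 ± 0.09, with an adjusted p of 0.133 (DESeq2 Wald test). Without aged replicate 1 or aged replicate 2 the aged livers were called lower than young for Qars (-0.32 and -0.33, adjusted p of 0.018 and 0.049).

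Kars, a member of the same complex, had 767, 642, 609 and 696 normalised counts in young livers, 638, 670, 599 and 600 in middle-aged livers, and 725, 603, 630 and 607 in aged livers. The 3 groups overlapped, and the 95% interval for aged over young ran from -0.28 to 0.11. The remaining members of the complex, Lars, Iars, Mars1, Rars, Dars and Eprs, lay between -0.08 and 0.04 for aged over young. The 3 scaffold genes Aimp1, Aimp2 and Eef1e1 were not called in any pair, with log2 fold changes of -0.20, -0.03 and -0.23 for aged over young. For middle-aged over young these were -0.29, -0.10 and -0.43. For Aimp1 and Eef1e1 the middle-aged livers were all below the young ones (background of no overlap 16%). Aimp1 was called lower in that pair (adjusted p of 0.044) when only these 2 ages were fitted.

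Synthetases fall into 2 unrelated structural classes. Of 18 class I genes 0 were called in any pair with DESeq2 or edgeR, with a median of -0.06 for aged over young. With either tool 3 of them had an unadjusted p under 0.05 in that pair, as did 2 of the class II genes with DESeq2 and 3 with edgeR (background 15.9% and 17.2%). Among 17 class II genes Tars was the only one called, with a median of -0.08; Eprs, a fused enzyme for glutamate and proline that holds both classes, had a log2 fold change of -0.05.

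Of the mitochondrial enzymes none was called. Tars2, the counterpart of Tars in name, had 320, 334, 312 and 325 normalised counts in young livers, 302, 268, 261 and 268 in middle-aged livers, and 300, 273, 219 and 202 in aged livers. The young livers were above all others, by a narrow margin for middle-aged replicate 1 and aged replicate 1. Its log2 fold change of aged over young was -0.38 ± 0.13, with an adjusted p of 0.0792 (DESeq2 Wald test), opposite in sign to that of Tars. Its call was gained without aged replicate 1 (-0.48) and with the replicate set as a covariate (-0.39, adjusted p of 0.033). Pars2 (proline) was the lone mitochondrial gene with all aged livers above all young ones, at 33.7 to 54.2 against 27.3 to 30.8 normalised counts, and its adjusted p was 0.554.

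Lars2, the mitochondrial leucyl-tRNA synthetase, varied most. It had 2784, 5029, 4159 and 3030 normalised counts in young livers, 1965, 3142, 2547 and 2023 in middle-aged livers, and 4113, 1808, 1846 and 2102 in aged livers. The 3 highest livers were young replicates 2 and 3 and aged replicate 1, and the groups overlapped. The log2 fold change of aged over young was -0.60 ± 0.26 (95% interval -1.12 to -0.09), with an adjusted p of 0.205. Without aged replicate 1 it was -0.97, with an adjusted p of 0.00023, and Lars2 was then also called in middle-aged against young (-0.63, adjusted p of 0.017). It was called lower within replicates 3 and 4 in both older ages against young (-0.87 and -0.66, adjusted p of 9.8e-06 and 0.0028) and, for middle-aged against young, when only these 2 ages were fitted (adjusted p of 0.021).

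The spread of Lars2 between livers of 1 age was 32.4% of its mean, against 5.1% (Nars) to 25.1% (Pars2) for the other 35 genes, although its mean count of 2879 was the highest of all 36. An annotated transcript of Lars2 shares a stretch of 72 bases at 98.6% identity with the antisense gene Gm15564, which had at most 17.8 normalised counts in any liver. The longest alignment with the mitochondrial 16S ribosomal RNA gene mt-Rnr2 was 20 bases. The 16S counts were 110641 in young replicate 2 and 32228 to 56375 in the other livers. Among 4968 genes the one most like Lars2 over the 12 livers was the protein-coding gene Anapc13 (Pearson r of 0.97), followed by Mir6236 (0.96), Hax1 (0.92), Sem1 (0.91) and Smdt1 (0.91). These livers share their library and depth across genes, so the likeness is a description only. Mir6236 had its 3 highest counts (2735, 2401 and 2380) in the 3 livers that were highest for Lars2, and 1067 to 1843 in the other 9. Whether reads of another RNA take part in the Lars2 count was not tested.

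**Figure D3:**
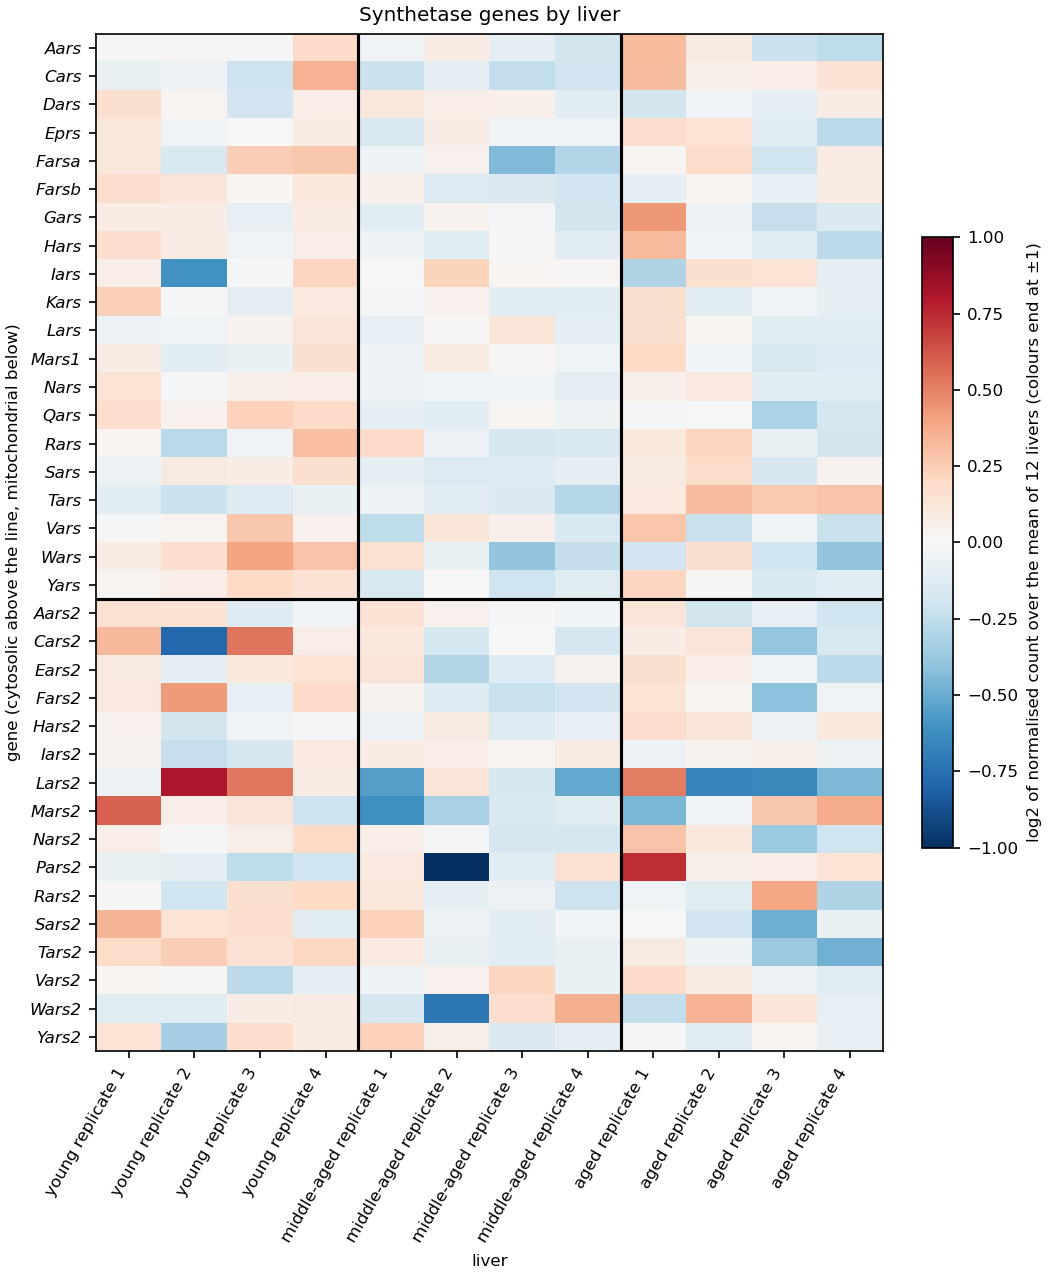
Log2 of the normalised count over the mean of 12 livers (colour, ending at 1 either way) for the 20 cytosolic (above the line) and 16 mitochondrial (below it) synthetase genes, with 1 column per liver. The row of Tars is high in the 4 aged livers, the row of Lars2 is high in young replicates 2 and 3 and aged replicate 1, and the column of aged replicate 1 is warmer than those of aged replicates 3 and 4.

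Livers of 1 age differed from each other along much of the family. Aged replicate 1 held the highest count of 12 of the 36 genes, 8 of them cytosolic, whereas aged replicates 3 and 4 held the lowest count of 8 genes each. The median of the cytosolic genes relative to their 12-liver means was 0.13 in aged replicate 1, 0.04 in aged replicate 2, -0.12 in aged replicate 3 and -0.11 in aged replicate 4, on a log2 scale. The mitochondrial medians were 0.11, 0.03, -0.06 and -0.10 in the same livers, in the same order. In young livers the cytosolic medians ran from -0.01 to 0.14 and in middle-aged livers from -0.12 to 0.00. The spread among 4 aged livers exceeded the difference of -0.06 between the medians of aged and young. Tars departed from this order, since its count was lowest in aged replicate 1 among the aged livers. The same held for Dars, Farsb, Iars, Iars2, Mars2 and Wars2.

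Levels of different genes were compared as normalised counts per kb of exon, taken over the union of annotated exons. In the mean over all ages Tars was highest at 334 ± 48.5 (SD, n = 12 livers), followed by Nars (asparagine) at 301 ± 17.5, Aars at 268 ± 31.6 and Lars2 at 260 ± 95.7, and each of these overlapped its neighbour in at least 1 liver. Across the whole order 29 of 35 neighbouring genes overlapped in that way, so the order is firm only in broad steps. The first place was not held at every age. In young livers alone the means were 338 for Lars2, 314 for Nars and 305 for Tars. In middle-aged livers they were 218 for Lars2, 290 for Nars and 302 for Tars. With the longest annotated transcript as the length, Lars2 was first at 739 per kb, ahead of Tars at 481 and Nars at 477. The median was 123 per kb over cytosolic genes (lowest for Farsa, highest for Tars) and 40.6 over mitochondrial genes without Lars2 (2.7 for Mars2 to 67.0 for Iars2).

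The cytosolic gene was above the mitochondrial gene for the same amino acid in all 12 livers for 13 of 17 pairs, with a median ratio of 2.85-fold per kb. Threonine had a ratio of 8.23-fold, asparagine 7.94-fold and alanine 6.17-fold. Methionine had the widest, 68.6-fold between Mars1 and Mars2, where the annotated exons of Mars2 span 11.294 kb. Leucine was reversed, with Lars at 0.265 of the level of Lars2 in the mean and below it in all 12 livers. Farsa, the alpha subunit of the cytosolic phenylalanine enzyme, was below Fars2 in all 12 livers, whereas Farsb, the beta subunit, was 2.37-fold above it. Isoleucine and tyrosine were close to even, with Iars above Iars2 in 10 livers and Yars above Yars2 in 11. With the longest annotated transcript in place of the union of exons, the median log2 ratio was 1.53 in place of 1.51, and Iars was then below Iars2 in all 12 livers. Yars was then 2.15-fold above Yars2, higher in all 12 livers, in place of 1.18-fold, and Lars was at 0.126 of Lars2.

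**Figure D4:**
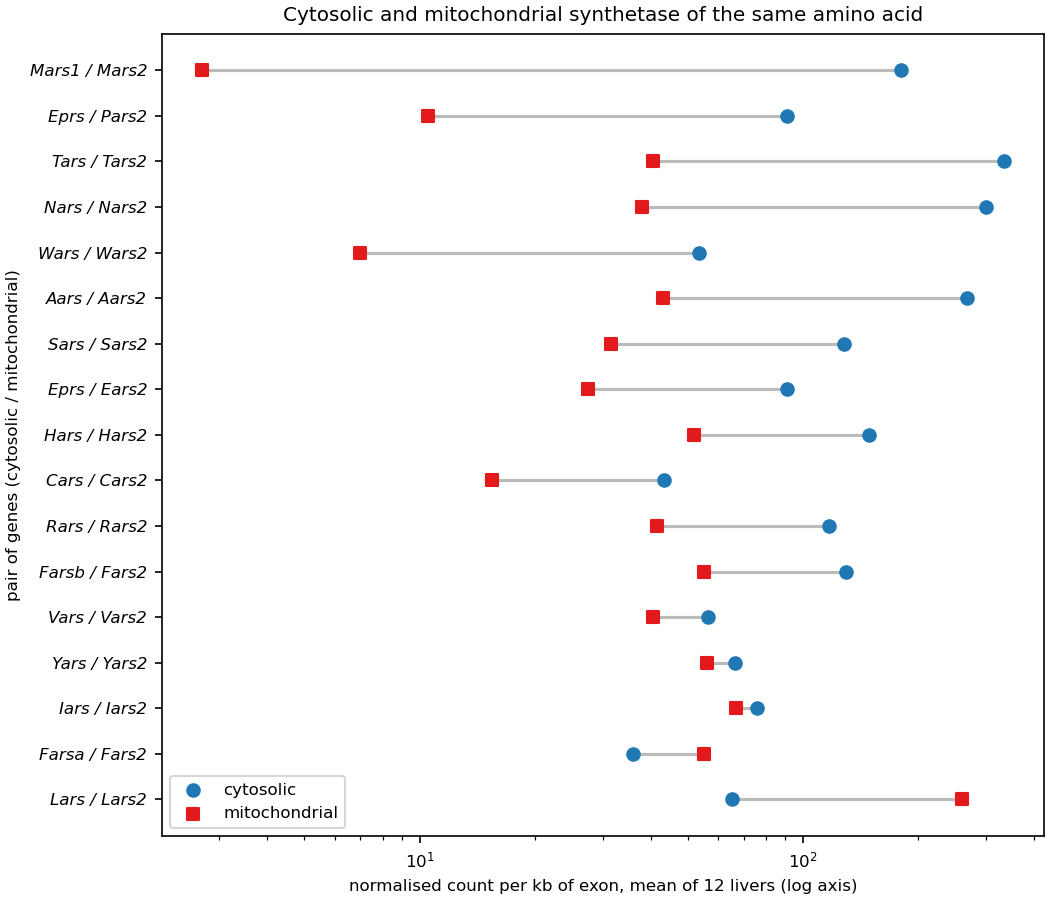
Normalised counts per kb of exon, mean of 12 livers (horizontal log axis), of the cytosolic (blue circles) and mitochondrial (red squares) synthetase gene of each amino acid (rows, ordered by their ratio). Mars1 and Mars2 lie farthest apart, and Lars2 and Fars2 (beside Farsa) are the red squares to the right of their blue circle.

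Some counts rest on shared sequence. Annotated exons of Aars contain those of Exosc6 on the same strand (1326 bases, 14.29% of the exon bases of Aars), and Exosc6 is listed at 0 in every liver. Iars2 shares 22.89% of its exon bases with Rab3gap2 on the opposite strand, and Hars and Hars2 share 195 bases of their divergent starts. Fars2, the gene above Farsa, shares 8.72% with Nrn1 on the opposite strand, which had 15980 counts in all against 3800 for Fars2. On the opposite strand Cars2 shares 5.83% with Naxd and Yars 0.5% with C77080. Cars, Farsb, Mars1, Ears2, Nars2 and Vars2 also share some exon bases with an opposite-strand gene. The strand setting of the counting is not given in the sources used here, so reads of the opposite-strand partners cannot be told apart. How reads in the bases shared by Aars and Exosc6 were assigned was not tested. The levels of all these genes are uncertain. Altogether 23 of the 36 genes shared no exon base with another annotated gene.

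Other genes of the charging pathway were read from lists that did not include the synthetases. Among 13 genes for other charging, editing and tRNA end steps, such as Trnt1, which adds the CCA end of tRNA, 0 were called in any pair or over the 3 ages with DESeq2 or edgeR. With DESeq2, 0 of them had an unadjusted p under 0.05 between aged and young livers, and 1 in each of the other pairs. With edgeR these counts were 0 for aged and young, 2 for middle-aged and young, and 1 for aged and middle-aged. Tarsl2, the second cytosolic threonine enzyme, had a log2 fold change of 0.09 (adjusted p of 0.851) for aged over young. Among 6 elongation factors that take charged tRNA to the ribosome or recycle those that do, Eef1b2 and Eef1g, both subunits of the exchange factor for eEF1A, fell in middle-aged livers by 0.41 and 0.30 on the log2 scale (adjusted p of 0.0256 and 0.0449, DESeq2). Of all genes tested in that pair, 6.41% were called. Eef1b2 had 1967, 2447, 2066 and 2061 normalised counts in young livers and 1543, 1538, 1639 and 1699 in middle-aged livers, and Eef1g had 1553, 1646, 1536 and 1538 against 1230, 1260, 1327 and 1276. The groups did not overlap for either, nor for Tufm, at 911 to 988 in young and 769 to 868 in middle-aged livers (background 16%). The count of 2 genes called was 0 with edgeR, with the replicate block and in 5 of the 12 fits that leave out 1 liver. For aged over young Eef1b2 and Eef1g had log2 fold changes of -0.33 and -0.20 (adjusted p of 0.123 and 0.289, DESeq2), not called. For aged over middle-aged these were 0.08 and 0.10. Without aged replicate 1 both genes were called lower in aged than in young livers (-0.47 and -0.32, adjusted p of 0.00011 and 5.8e-05, DESeq2). Eef1a1, which carries the charged tRNA itself, had means of 40811, 40933 and 40586 normalised counts at the 3 ages, and its log2 fold changes lay within 0.01 of 0.

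Of 28 amino acid and stress response genes linked to ATF4, those with too few counts had no adjusted p. Between aged and young livers 2 of 25 tested were called, both higher in aged (background 3.58%). Between middle-aged and young 0 of 18 were called with DESeq2 or edgeR (background 6.41%). Between aged and middle-aged 1 of 16 was called (background 1.14%). With DESeq2 and edgeR, 7 and 6 of the 28 had an unadjusted p under 0.05 for aged against young (background 15.9% and 17.2%). For middle-aged against young these were 2 and 1 (background 21.7% and 21.1%), and for aged against middle-aged 9 and 7 (background 9.94% and 9.64%). In that last pair all aged livers were higher for 4 list genes and lower for 2 (background 6.55%). Atf5, a transcription factor of this response, had 4001, 4301, 4606 and 4973 normalised counts in young livers, 4603, 4682, 4081 and 4435 in middle-aged livers, and 5563, 6407, 6016 and 5209 in aged livers. All aged livers were above all others, as for Tars. Atf5 rose by 0.38 in both comparisons with aged livers (adjusted p of 0.00309 and 0.00593, DESeq2 Wald test), and with edgeR it was not called.

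Fgf21, a hormone secreted by the liver, had 2 reads in all 4 young livers together, 20 in middle-aged and 82 in aged livers. Its normalised counts were 1.1, 0, 1.2 and 0 in young, 7.9, 8.1, 0.9 and 2.0 in middle-aged and 9.0, 17.3, 33.2 and 15.2 in aged livers. The ratio of aged to young was 34.3 (95% interval 9.2 to 288, which covers counting error only), and the adjusted p was 0.00213 with DESeq2. The filter on low counts left Fgf21 out, so it was not tested there. It was not called with edgeR, which also leaves out genes of low count before testing. Atf4 itself had a log2 fold change of 0.14 for aged over young (adjusted p of 0.691, DESeq2 Wald test). It was -0.22 for middle-aged over young (adjusted p of 0.361) and 0.36 for aged over middle-aged (adjusted p of 0.236). With the replicate set as covariate Atf4 was called in that last pair (0.36, adjusted p of 0.037). The median over the 28 genes was -0.21 for aged over young, with 11 estimates above 0 and 17 below, and -0.12 over the 22 with a mean of 10 or more normalised counts. Without aged replicate 1 the number of list genes called between aged and young was 7. Atf5, Fgf21 and Vldlr were higher and Cebpb, Chac1, Eif4ebp1 and Trib3 lower in aged livers. That fit also called 4 synthetase genes in place of 1, and the share of all genes called in it was not counted.

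Asns, asparagine synthetase and a standard reporter of amino acid shortage, had 131, 251, 77.0 and 206 normalised counts in young livers, 174, 211, 184 and 301 in middle-aged livers, and 260, 136, 14.0 and 16.1 in aged livers. The aged livers fell far apart, with aged replicates 3 and 4 below every other liver, and Asns was not called (adjusted p of 0.781). Within replicates 1 and 2 of each age its log2 fold change of aged over young was 0.06 (adjusted p of 1). Within replicates 3 and 4, the set that holds both low livers, it was called lower in aged than young livers by 3.24 on the log2 scale (log2 fold change of -3.24, adjusted p of 2.7e-09). None of the 8 genes for eIF2 alpha kinases and their partners was called, and Eif2ak4 had a log2 fold change of 0.18 (adjusted p of 0.777) for aged over young.

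**Figure D5:**
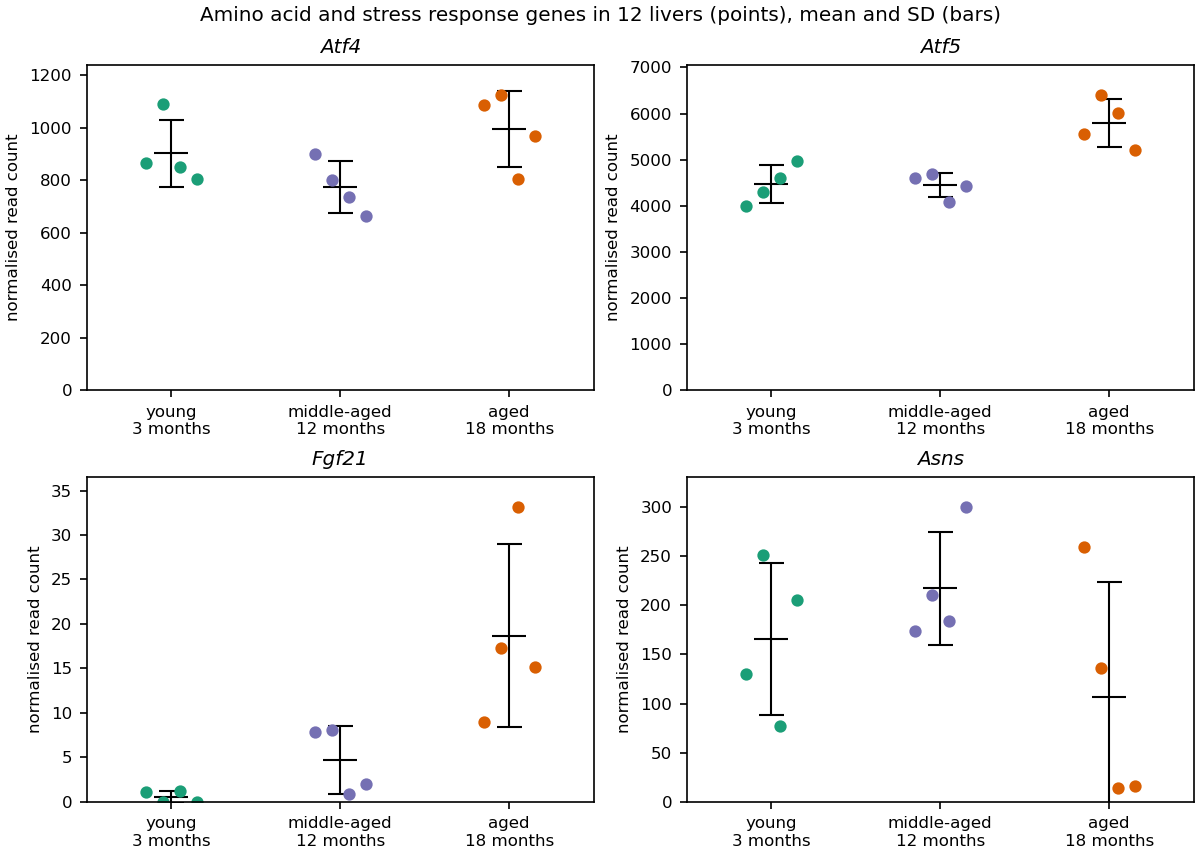
Normalised read counts of Atf4, Atf5, Fgf21 and Asns (vertical axes, from 0) in young, middle-aged and aged livers (horizontal axes); each point is 1 liver and bars give the mean and SD of 4 livers, with the lower bar of Asns in aged livers ending at the axis. The aged livers lie above all others for Atf5 and Fgf21, overlap them for Atf4, and split for Asns into 260 and 136 against 14.0 and 16.1.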

How the data were processed

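The authors deposited 1 table of whole-number read counts per gene, not normalised, for 12 livers. The submitters' processing notes name STAR 2.5.2b, SAMtools 1.9, featureCounts, DESeq2 1.26.0 and the builds mm10 and GRCm38, without roles. Libraries were mapped to ages by their titles, and 0 columns were left unmapped. Symbols and exons came from GENCODE M21; Mars1 was matched through a RefSeq synonym. Rows for 92 spike-in RNAs did not enter any test.

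All genes with at least 1 count were fitted in DESeq2 1.42.0 (R 4.3.3) with age as the only term and 12 livers in 1 fit, as the study's methods name DESeq2 with a threshold of 0.05. Pairs of ages were compared by the Wald test and the 3 ages by the likelihood ratio test, with Benjamini-Hochberg adjustment over all genes tested. Intervals are 1.96 SE either side. Replicates were treated as separate animals, an assumption on which every p-value rests. Promoter windows came from the RefSeq table, and like sequence was searched with BLAST+ 2.17.0. Scripts were tested on simulated data, where DESeq2 made a larger share of false calls than edgeR.

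Values in every liver are given for synthetase genes called in any test, Gars, Kars, the cytosolic and mitochondrial gene with the highest level per kb and, up to 6, those with the lowest likelihood ratio p. Members, lists and tests were chosen with earlier results of these data known. Alternatives were edgeR 4.0.16, TMM factors, total counts, keeping genes that reached 10 counts in 4 or more livers, no independent filtering, only the 2 groups compared, a replicate block, the spike-in set (replicates 1 and 2 against 3 and 4) as covariate or within-set fits, and leaving out each liver. The counts of the ATF4 and elongation factor lists under these alternatives were added after the data were seen. Protein sequences were not used here, and some items are not reported here.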

Additional observations from a re-analysis of the deposited data

Results flagged for a closer look

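Within the 108 groups of 4 livers (36 genes at 3 ages), 5 had 1 liver whose gap to the others passed Dixon's 95% critical value, where chance alone gives about 5.4 (1 in 20). Lars2 in aged replicate 1 was at 4112.6 normalised counts against 1808 to 2102.5 in the other aged livers, and Pars2 in the same liver was at 54.2 against 33.7 to 35.8. Aars in young replicate 4 was at 2843.9 against 2462.2 to 2504. Gars in young replicate 3 was at 447.9 against 498 to 500.8, and Iars in middle-aged replicate 2 was at 465.1 against 399.1 to 404.4.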

How the results depend on the processing

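With 4 livers per age, the SE of a log2 fold change of aged over young was 0.07 to 0.31 over the 36 genes (median 0.13), and intervals cover the spread between these animals only. The call on Tars was lost for aged against young with edgeR and the replicate block (adjusted p of 0.11) and within replicates 1 and 2 or 3 and 4 (0.609 and 0.0519), over a range of 4.7e-07 to 0.609 in 23 alternatives. The number of synthetase genes called was 1 for aged against young. It was 0 with edgeR and the block, 2 with the replicate set as covariate, and 0 in replicates 1 and 2. In replicates 3 and 4 it was 1 (Lars2 in place of Tars). When 1 liver was left out it was 1 to 4 (4 without aged replicate 1, 2 without aged replicate 2). For middle-aged against young it was 0, then 1 with only the 2 groups compared, 1 in replicates 3 and 4 (Lars2 in both), and 0 to 1 with 1 liver left out (1 without aged replicate 1). For aged against middle-aged it was 1, then 0 with edgeR, 0 with edgeR and the block, 0 in replicates 1 and 2, and 1 in each fit without 1 liver. Over the 3 ages it was 1, then 0 with edgeR and the block, 0 in replicates 1 and 2, 2 in replicates 3 and 4, and 1 to 4 without 1 liver (4 without aged replicate 1). The causes were not tested, and the fits in 2 replicates hold fewer livers. The share of all genes called was counted for the main fit only.

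Replicate numbers did not pair the livers, since over 12 same-numbered pairs and 8888 genes the correlation of deviations ran from -0.303 to 0.159. With the replicate block in DESeq2 the synthetase genes called stayed at 1, 0, 1 and 1, and Tars had adjusted p of 0.0102 for aged against young livers and 0.00935 for aged against middle-aged.

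For the ATF4 list, aged against young gave 2 genes, and 0 with edgeR with or without the block, 1 with the filter on low counts, 1 in replicates 1 and 2, 5 in replicates 3 and 4, and 2 to 7 without 1 liver (7 without aged replicate 1). Aged against middle-aged gave 1, and 0 with edgeR with or without the block. It gave 2 with only the 2 groups compared and 2 with the replicate set as covariate. In replicates 1 and 2 it gave 0, and in replicates 3 and 4 it gave 3. Without 1 liver it gave 0 to 2. It was 0 without aged replicate 3, middle-aged replicate 3 or middle-aged replicate 4, and 2 without aged replicate 1. The elongation factors gave 2 for middle-aged against young, and 1 with TMM factors, 1 with the filter, 0 with edgeR (with or without the block), total counts, no independent filtering, the block or either pair of replicates, and 0 to 2 without 1 liver (0 without middle-aged replicate 1, 2 or 3 or young replicate 2 or 3, and 1 without aged replicate 2 or 4, middle-aged replicate 4 or young replicate 1 or 4). These list counts were added after the data were seen.

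Log2 fold changes near 0 turned sign, none of them called. For Tars in middle-aged over young (-0.01) the value was 0.01 with TMM factors, 0.10 with total counts, 0.08 in replicates 1 and 2, and -0.05 to 0.03 without 1 liver. For Gars in aged over young (-0.02) these were 0.01, 0.10, 0.14 and -0.18 to 0.06; in middle-aged over young it was 0.01 with total counts, and in aged over middle-aged -0.08 in replicates 3 and 4 and -0.08 to 0.16 without 1 liver. Kars was 0.03 in aged over young with total counts, and -0.03 to 0.07 in aged over middle-aged without 1 liver. For aged over middle-aged, Lars2 was -0.20 in replicates 3 and 4 and -0.33 to 0.18 without 1 liver, and in replicates 1 and 2 Qars was 0.10 and Tars2 0.01. Total counts moved the median of all genes to 0.124 for aged over young. Relative to it the cytosolic median was -0.08 and the mitochondrial -0.09. Size factors from spike-ins moved the median of all genes to 1.168, relative to which the cytosolic and mitochondrial medians were -0.09 and -0.13. With spike-in factors Tars was 1.53 for aged over young, 1.48 for middle-aged over young and 0.05 for aged over middle-aged. Relative to all genes Tars was then 0.36, -0.01 and 0.38. No test was run with these factors. Of 522 alternative values for the 6 genes given in every liver and for the cytosolic and mitochondrial medians, 469 kept their direction and side of the threshold, or moved by less than the replicate spread.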
